A study of Mus musculus with 2744 samples.

Results

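Elavl and Celf genes encode 2 families of RNA-binding proteins, and their messages were followed here in cultures in which mouse embryonic stem cells became motor neurons. The members were taken by gene symbol from the count tables: Elavl1, Elavl2, Elavl3, Elavl4 and Celf1, Celf2, Celf3, Celf4, Celf5 and Celf6. These are 10 of the 23968 gene entries. The data are single-cell RNA sequencing of 2744 cells in 2 experiments, called main (24 plates) and pilot (11 plates), in which each well of a plate held 1 sorted cell. Embryoid bodies had been taken apart into single cells with papain, and messenger RNA was barcoded and amplified by a modified CEL-seq protocol, which reads the 3′ ends of messages. Cells were sampled on Days 2, 3, 4, 5 and 6, and on Day 6 there were also cells labelled eGFP+ (1 main plate) and eGFP++ (3 main plates and 1 pilot plate). The labels name no stem cell line, no inducing agents and no reporter behind the eGFP label, so these limits hold for every group below.

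ELAVL proteins bind U-rich and AU-rich stretches of messages, many of them in the 3′ untranslated region, and most often raise the stability or translation of what they bind. Elavl1 (HuR) is made in almost all tissues, whereas Elavl2 (HuB), Elavl3 (HuC) and Elavl4 (HuD) form the neuronal branch and are among the classical early markers of newborn neurons. CELF proteins bind GU-rich stretches, regulate splicing in the nucleus and recruit deadenylases in the cytoplasm. Celf1 and Celf2 are broadly made, and Celf3, Celf4, Celf5 and Celf6 form a branch found mostly in the nervous system.

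A cell was kept when at least 500 genes had a read, which left 2448 cells. Within each experiment, reads of a group's kept cells were added up, which gives a group 2 sums, and levels are given as CPM, reads of a gene per 1000000 gene reads of the sum. The sums held 16370502 to 100972780 gene reads. Median detected genes per cell ranged from 1524 (main eGFP+) to 4439 (main Day 2), and the share of spike-in reads from 2.98% (main Day 2) to 19% (main eGFP+). Summed CPM of 6 neuron markers (Stmn2, Stmn3, Dcx, Ina, Snap25 and Tubb3) on Days 2 to 6 was 184.3, 124.4, 58.2, 460.6 and 1894 in the main sums and 86.8, 85.1, 16.5, 201.8 and 1824 in the pilot sums. The 5 motor neuron markers (Isl1, Mnx1, Lhx3, Chat and Slc18a3) summed to 394.97 and 251.2 CPM on Day 6 and to 1044 and 1292 CPM in eGFP++ cells. Egfp itself stood at 3804 CPM in main Day 6, 1488 in eGFP+ and 9759 in eGFP++, so the plate labelled eGFP+ lay below the unselected cells of its day. A main Day 3 plate stood apart, with a median of 1220 detected genes per cell against 3992 to 4724 on the other 4 plates of that day. Values that rest on it are given with and without it.

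The stretch upstream of the gene is shown for 3 members whose levels were low on Day 2 and high on Day 6, Elavl3, Elavl4 and Celf3, and for Celf1, which was read on every day. The sequences are RefSeq's, of build GRCm38.p6, 5′ to 3′ on the gene's own strand, and end where the annotated gene begins. Elavl3 is shown at chr9:22052024-22052273 (minus strand), Elavl4 at chr4:110351912-110352161 (minus strand), Celf1 at chr2:90940147-90940381 (plus strand) and Celf3 at chr3:94478045-94478294 (plus strand). Capitals mark matches, on either strand, to an E-box (CANNTG, the target of proneural basic helix-loop-helix factors), a GC box (GGGCGG) or a TATA box (TATAAA). The last run of capitals of Celf1 holds 2 GC box matches that overlap each other.
Elavl3: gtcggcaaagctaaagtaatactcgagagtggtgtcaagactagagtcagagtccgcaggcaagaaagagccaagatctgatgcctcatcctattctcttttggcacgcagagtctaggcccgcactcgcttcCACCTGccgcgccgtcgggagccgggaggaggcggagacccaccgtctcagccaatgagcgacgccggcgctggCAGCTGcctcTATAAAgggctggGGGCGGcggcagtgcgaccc
Elavl4: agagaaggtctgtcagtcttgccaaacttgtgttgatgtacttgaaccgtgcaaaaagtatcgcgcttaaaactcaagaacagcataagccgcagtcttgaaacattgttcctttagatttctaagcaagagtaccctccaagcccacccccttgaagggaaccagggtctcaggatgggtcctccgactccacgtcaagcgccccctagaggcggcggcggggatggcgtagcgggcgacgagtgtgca
Celf1: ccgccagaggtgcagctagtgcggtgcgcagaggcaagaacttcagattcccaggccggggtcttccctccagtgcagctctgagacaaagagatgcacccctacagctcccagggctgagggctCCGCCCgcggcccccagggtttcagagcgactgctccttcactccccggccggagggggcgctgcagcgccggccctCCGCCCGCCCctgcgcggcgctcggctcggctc
Celf3: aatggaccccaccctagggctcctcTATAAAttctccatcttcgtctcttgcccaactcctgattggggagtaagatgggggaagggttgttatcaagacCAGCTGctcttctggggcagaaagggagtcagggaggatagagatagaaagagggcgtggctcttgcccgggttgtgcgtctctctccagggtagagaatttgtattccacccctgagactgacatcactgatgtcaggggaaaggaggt
Elavl3 held 2 E-boxes, 1 GC box and 1 TATA box, and Celf3 held 1 E-box and 1 TATA box. Celf1 held 3 GC box matches, 2 of them overlapping, and the window shown of Elavl4 held none of these. Over the 250 bases upstream of 32851 promoters in the same table, 66.2% held an E-box, 32.7% a GC box and 12.4% a TATA box. The E-box form CATCTG was in 14.4% of them. Elavl4 has 4 start sites in that table and Celf3 has 7, of which the first is shown. The windows of the other Elavl4 start sites, which lie inside the gene, held 3, 3 and 1 E-boxes, each with 1 CATCTG, and every Celf3 window held at least 1 E-box, as did Elavl3. Windows of nearby start sites overlap, so the same box can be counted in more than 1 of them. Examples are chr4:110287528-110287777 and chr4:110287512-110287761 of Elavl4, and chr3:94478045-94478294 and chr3:94478085-94478334 of Celf3. A match is a description of the letters and not a bound site.

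Elavl4, whose protein HuD stabilises messages of growing neurites, was near absent early and strong from Day 5 on. Elavl4 (chr4:110203722-110351909, minus strand) stood at 3.12, 1.73, 27.8, 155.8 and 299.5 CPM on Days 2 to 6 of the main experiment. Its 5 pilot sums were 1.503, 0, 0.0332, 84.5 and 196.1 CPM. In both experiments each of the later 2 days lay above each of the earlier 3. The fold from Day 2 to Day 6 was 95.9 in the main sums and 130.4 in the pilot sums. The pilot fold is unsure, since its Day 2 reads lay on a single plate, where 2.70% of 37 kept cells held a read. The fitted slope was 1.90 ± 0.46 (SE) log2 units per day (edgeR's quasi-likelihood test, adjusted p = 0.0412, 10 sums). In sums like these, fewer cells with a message and less message per cell cannot be told apart, so shares of cells are given as well. The Day 4 value of the main experiment came largely from a single cell, which held 66.3% of the reads. When each cell was thinned to 10000 reads, 2.25%, 0.711%, 3.54%, 35.3% and 44.4% of main cells held an Elavl4 read on Days 2 to 6. Without thinning the Day 6 share was 59.04% (95% Wilson interval 53.85 to 64.04%, counting error only).

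Elavl3, whose protein HuC is a standard label of postmitotic neurons, was also highest on Day 6, with an uneven course before it in the pilot sums. Elavl3 (chr9:22015005-22052023, minus strand) stood at 5.06, 1.44, 2.47, 45.3 and 150.9 CPM in the main experiment. The pilot sums were 16.2, 40.4, 0.0332, 20.2 and 95.6 CPM. The pilot values of Days 2 and 3 rest almost wholly on 1 cell each, with 99.9% and 89.4% of the reads, and the Day 4 value is 2 reads. Shares of thinned cells are less open to single cells: they were 3.10%, 1.42%, 2.65%, 25.8% and 31.9% in main cells and 1.35%, 2.90%, 0%, 8.0% and 33.8% in pilot cells. The slope was 0.89 ± 0.40 per day and did not pass (adjusted p = 0.249).

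Elavl2, the HuB gene, also active in germ cells, was low but not absent early on. Elavl2 (chr4:91250763-91400785, minus strand) stood at 15.1, 25.7, 9.45, 54.3 and 195.7 CPM in the main experiment. The pilot sums were 39.7, 16.3, 3.60, 53.2 and 134.2 CPM. Day 6 was the highest day in both experiments. The main Day 3 sum was 6.96 CPM without the plate with few genes, which puts Day 3 and not Day 4 lowest there, whereas Day 4 was the lowest pilot day. Elavl2 was 13-fold higher on Day 6 than on Day 2 in the main sums and 3.38-fold higher in the pilot sums, with a slope of 0.62 ± 0.22 per day that did not pass (adjusted p = 0.138). In thinned cells of the main experiment the share with Elavl2 was 11.5% on Day 2, 6.19% on Day 4 and 32.8% on Day 6. Counting thinned reads in place of all reads gave a slope of 0.82 (adjusted p = 0.0201), the same direction on the other side of the threshold.

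Elavl1, the ubiquitous member, showed the opposite tilt and a much smaller range. Elavl1 (chr8:4285382-4325413, minus strand) stood at 355.8, 272.6, 213.1, 275.5 and 175.99 CPM on Days 2 to 6 of the main experiment. The pilot sums were 494.98, 537.1, 603, 318.02 and 308.1 CPM. Day 6 was the lowest of the 5 days in each experiment, at 0.495 and 0.623 of the Day 2 level. The slope was −0.24 ± 0.07 per day (adjusted p = 0.0758), close to the threshold and not past it. Plates of 1 day overlapped between days, with 256.8 to 477.2 CPM over the 4 main plates of Day 2 and 79.6 to 288.3 over those of Day 6. Among thinned main cells 66.2% held Elavl1 on Day 2, 61.3% on Day 5 and 32.5% on Day 6, whereas among pilot cells the share was 33.8% on Day 2 and 50.7% on Day 6. The CPM and the share thus went different ways in the pilot experiment, where median detected genes per cell were 1810 on Day 2 and 3361 on Day 6. With spike-in reads as the scale the slope passed (adjusted p = 0.00196). On that scale the median slope of all genes was −0.51 per day, and 95.6% of the 4819 genes called were lower.

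Celf3 was at or near 0 up to Day 4 and was read in every sum after it. Celf3 (chr3:94478295-94492198, plus strand), a neuronal splicing regulator, had no read in any kept main or pilot cell of Day 2, which allows a share of up to 0.831% and 4% of cells with a read. Its main sums on Days 2 to 6 were 0, 1.29, 1.80, 42.7 and 104.2 CPM. Its pilot sums were 0, 0, 0, 20.6 and 83.3 CPM. Every sum of Days 5 and 6 was above every sum of Days 2 to 4. Against a floor of 3 reads per Day 2 sum, the fold to Day 6 was 2580 in the main sums and 1460 in the pilot sums. That floor covers counting error of reads only, since reads carry no molecular identifiers, so these folds are not lower bounds for messages. By cells, 27.3% to 43.7% held a Celf3 read on the main Day 6 plates, and 35.9% and 34.4% on the pilot ones. The slope was 3.39 ± 0.58 per day (edgeR's quasi-likelihood test, adjusted p = 0.0102), a size that depends on the prior count because of the sums at 0. In thinned main cells the share was 0% on Days 2 and 3, 0.442% on Day 4, 16.6% on Day 5 and 22.3% on Day 6.

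Celf4, Celf5 and Celf6, the other nervous system members, were thinly measured. Celf4 (chr18:25477632-25754157, minus strand), an RNA-binding protein of excitatory neurons, was at 25.4, 12.9, 10.7, 10.98 and 40.2 CPM in the main sums and 9.15, 0.0556, 29.99, 6.33 and 25.4 CPM in the pilot sums. Its Day 6 value was 1.58 times that of Day 2 in the main sums and 2.78 times in the pilot sums, with no steady order of the days between. Celf5 (chr10:81459227-81482709, minus strand) stayed at or under 4.49 CPM from Day 2 to Day 5 and reached 17.8 and 9.89 CPM on Day 6, where 41.1% of the main reads came from 1 cell. Celf6 (chr9:59577917-59607292, plus strand) stood at 0.754, 0.574, 0, 1.79 and 8.83 CPM in the main sums and at 0.0571, 8.08, 0, 0.0166 and 10.1 CPM in the pilot sums. The pilot Day 3 value of Celf6 is 1 cell. None of these 3 genes had a slope that passed, with adjusted p-values of 0.776, 0.606 and 0.624.

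Celf1 and Celf2, the broadly made members, had no slope that passed. Celf1 (chr2:90940382-91019497, plus strand), known from myotonic dystrophy and from decay of GU-rich messages, was at 110.4, 137.3, 117.99, 104.6 and 83.2 CPM in the main sums and 122.5, 91.2, 198.7, 169.8 and 119.1 CPM in the pilot sums. Its Day 3 main value was 100.9 CPM without the plate of few genes, and its slope was −0.06 ± 0.09 per day (adjusted p = 0.790). Celf2 (chr2:6539694-7509563, minus strand) was at 10.9, 36.7, 32.9, 26.3 and 20.2 CPM in the main sums and 8.66, 28.97, 63.6, 40.4 and 24.6 CPM in the pilot sums. Both experiments had their lowest Celf2 sum on Day 2 and their highest on Day 3 or 4, and without the plate of few genes the main Day 3 sum was 24.7 CPM. This shape is a description and was not tested, and the linear slope was 0.14 ± 0.21 (adjusted p = 0.787).

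**Figure D1:**
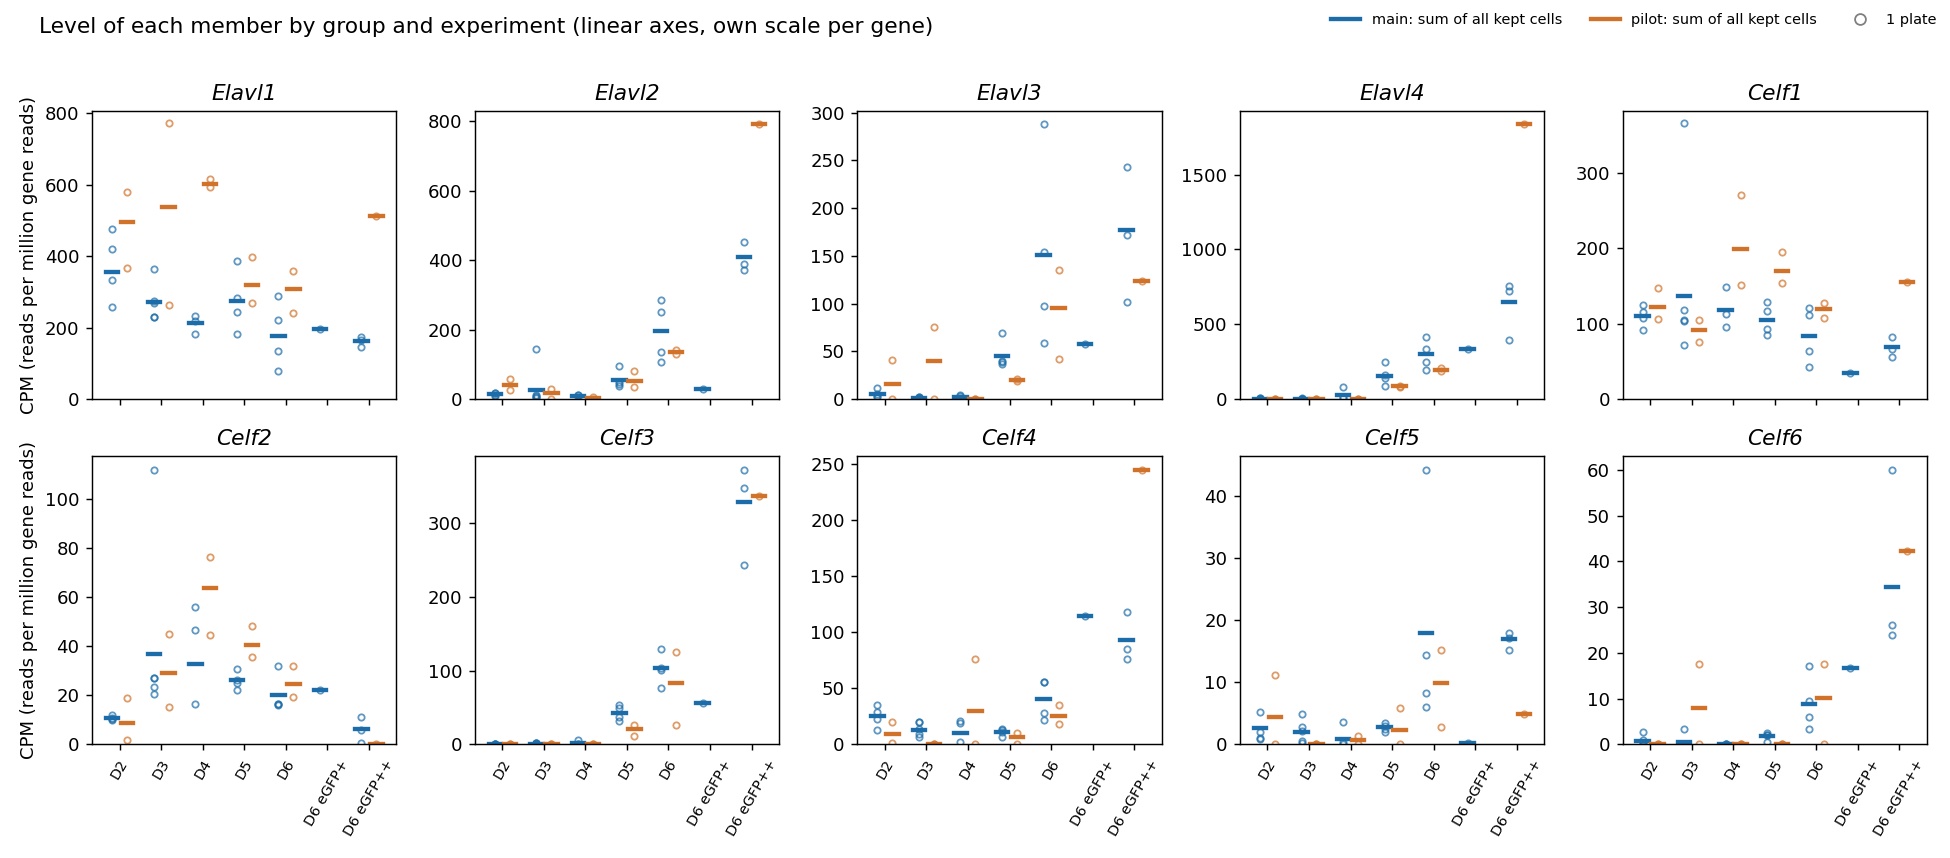
Level of each of the 10 members (y axis, CPM on a linear scale of its own per gene) in the groups from Day 2 to Day 6 eGFP++ (x axis). Short bars mark the sums of the main and the pilot experiment and circles are single plates; Celf3 and Elavl4 lie near 0 until Day 4, while Elavl1 and Celf1 are read in every sum.

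**Figure D2:**
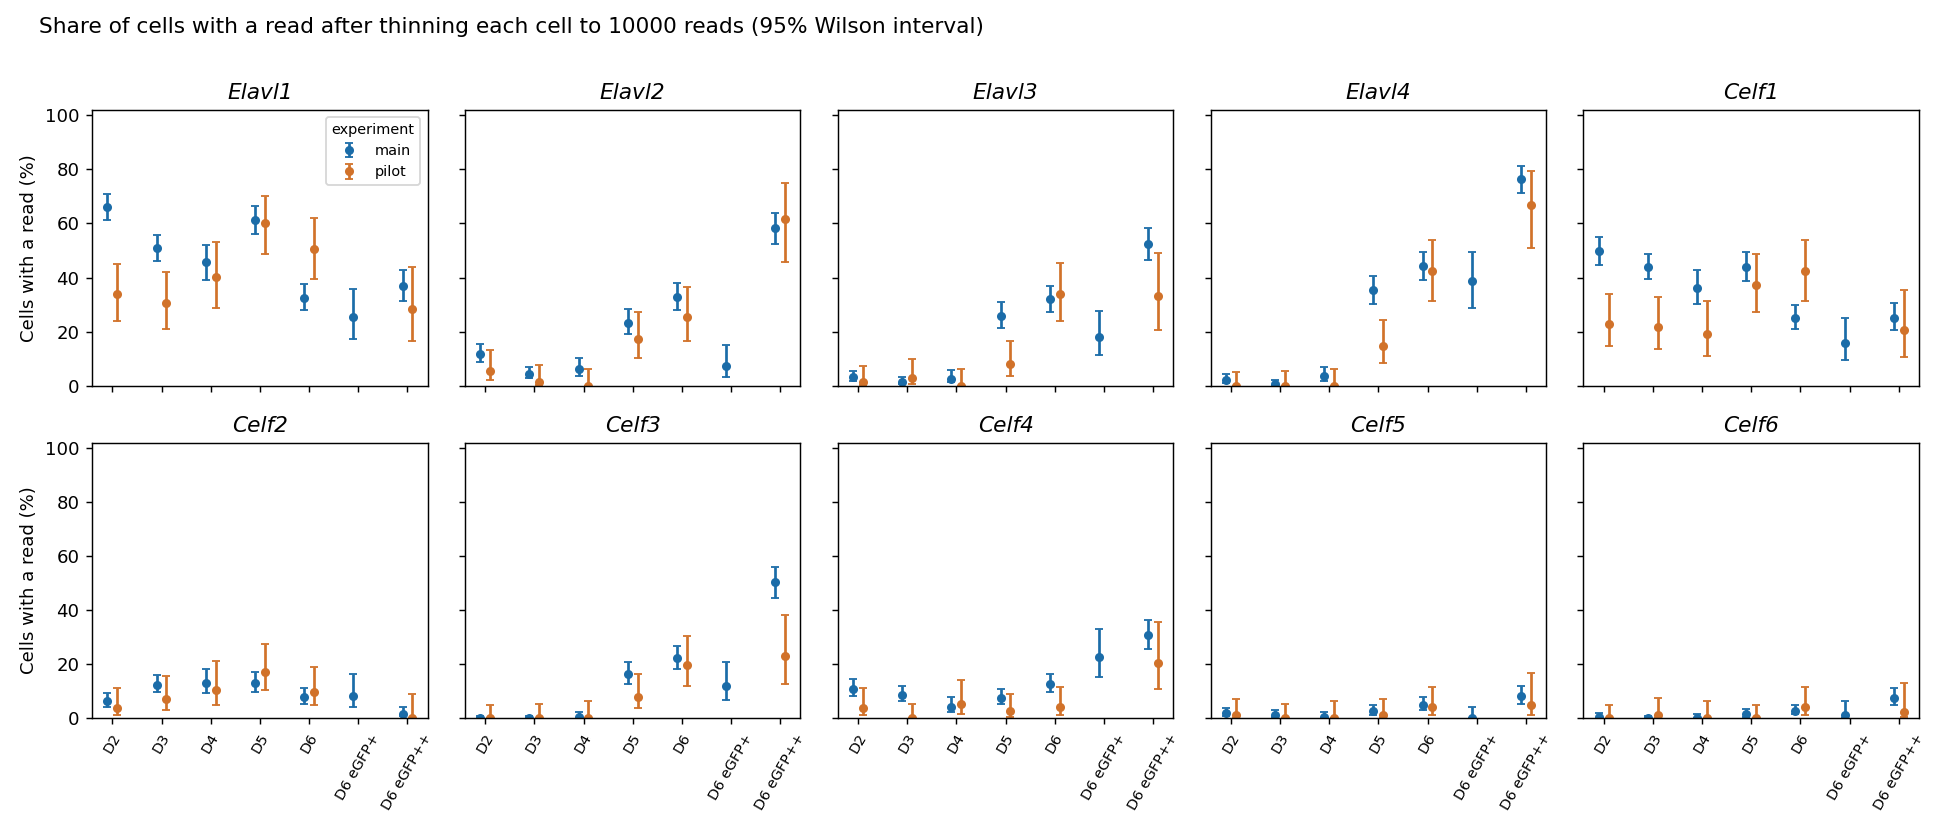
Share of cells with a read of each member after thinning every kept cell to 10000 reads (y axis, percent) by group (x axis) and experiment, with 95% Wilson intervals that cover counting error only. Elavl4 goes from 2.25% on Day 2 to 44.4% on Day 6 and 76.6% in eGFP++ cells of the main experiment.

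Across the 10 members, 2 rose with the day (Elavl4 and Celf3) and none fell, where 4.18% of the 15971 genes tested were called, 1.97% higher and 2.21% lower. All 10 were tested. The median member slope was 0.53 log2 units per day, beside 0.02 over all genes tested, and 8 of the 10 slopes were positive. Between Day 2 and Day 6, a comparison that uses sums of the slope again, 1 member was called, Celf3 (adjusted p = 0.0460), where 0.833% of 16080 genes were called and 0.585% were higher. The Elavl4 difference between Day 6 and Day 2 was 6.82 ± 2.12 and that of Elavl2 2.46 ± 0.67, with adjusted p-values of 0.193 and 0.142. The median over the members was 2.01, beside 0.17 over all genes, and it is the same with Celf3 set to its fold against the floor of 3 reads. Elavl4's slope is the less firm of the pair: leaving out each of the 10 sums in turn, it passed 2 times, with adjusted p up to 0.150. Celf3's slope passed 9 of 10 times and missed without the pilot Day 6 sum (adjusted p = 0.0528), and its Day 6 against Day 2 call was lost in all 4 such fits.

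Between Day 4 and Day 5 the neuronal Elavl genes and Celf3 were several-fold higher in both experiments, but no gene passed. Elavl2 was 5.75-fold higher on Day 5 than on Day 4 in the main sums and 14.8-fold in the pilot sums, and its fitted difference was 2.97 ± 0.68 (adjusted p = 0.932). Elavl3 was 18.3-fold and Elavl4 5.60-fold higher in the main experiment, and their pilot Day 4 sums held 2 reads each. Celf3 was 23.7-fold higher in the main sums. The pilot Day 4 sum, of 57 kept cells, held no Celf3 read, and against a floor of 3 reads the pilot fold was 413.6. That floor covers counting error of reads only, so the fold is not a lower bound for messages. By cells, 13.2% and 5.41% held a Celf3 read on the pilot Day 5 plates. With edgeR's quasi-likelihood test 0 of the 10 members and 0% of all 16080 genes were called. An unadjusted p below 0.05 was found for 595 genes, a share of the tested genes that is itself under 0.05. DESeq2 called 1.14% of genes, Elavl2 among them (adjusted p = 0.0198). The median over the members was 2.22 and over all genes 0.13. Main Day 4 was the day with the fewest neuron markers found: 89.4% of its thinned cells held none of the 6, against 50% on Day 5.

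**Figure D3:**
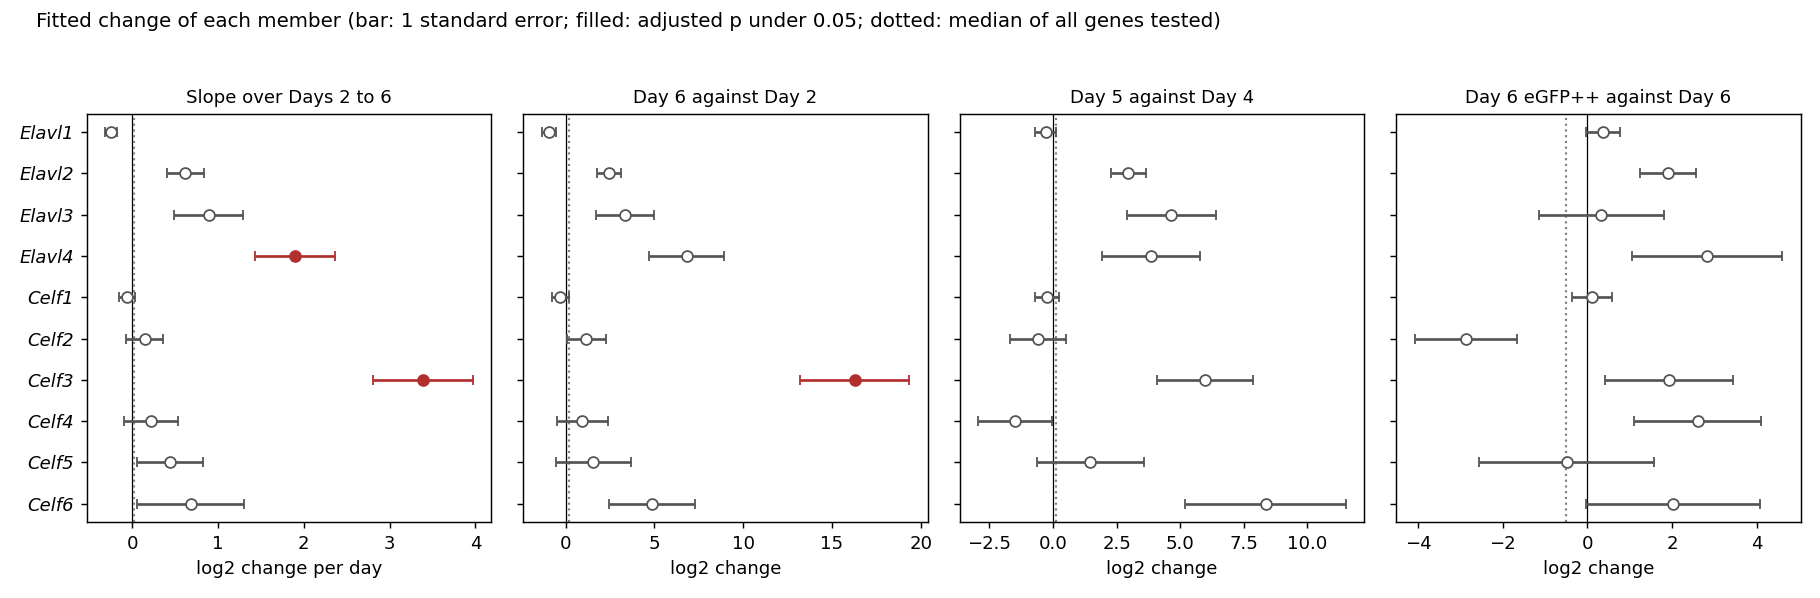
Fitted log2 changes of the 10 members ± SE (x axis; per day for the slope, between groups elsewhere) in the 4 comparisons. Filled points have an adjusted p under 0.05 and dotted lines mark the median of all genes; only Celf3 and Elavl4 are filled for the slope and only Celf3 for Day 6 against Day 2.

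In eGFP++ cells the CPM of Elavl2, Elavl3, Elavl4, Celf3, Celf4 and Celf6 stood higher than in unselected Day 6 cells in both experiments. Celf2 stood lower in both. Elavl4 was at 646 CPM in main and 1836 CPM in pilot eGFP++ cells, 2.16-fold and 9.36-fold above Day 6. Elavl2 was at 408.5 and 791 CPM, 2.09-fold and 5.89-fold above. Celf3 was at 329.4 and 337.6 CPM, 3.16-fold and 4.05-fold above, with closely similar levels in the 2 experiments. Its shares of cells were less alike. Without thinning, 46.2% of pilot eGFP++ cells held a Celf3 read, against 35.9% and 34.4% on the pilot Day 6 plates. Main eGFP++ plates gave 55.3% to 80.9% and main Day 6 plates 27.3% to 43.7%. Celf4 was at 92.6 and 244.5 CPM, 2.30-fold and 9.62-fold above. Elavl3 stood at 176.8 and 124.1 CPM, only 1.17-fold and 1.30-fold above Day 6. Its share of thinned cells was 52.5% against 31.9% among main cells, and 33.3% against 33.8% among pilot cells. Celf6 was at 34.5 and 42.2 CPM, and 98.1% of the pilot reads came from 1 cell. Celf5 was at 16.9 and 4.95 CPM, against 17.8 and 9.89 CPM on Day 6, and 96.3% of the pilot eGFP++ reads came from 1 cell. The main sums thus differed little, at 0.946 times Day 6. The share of thinned main cells with Celf5 went the other way, at 8.16% in eGFP++ against 5.08% on Day 6. Without thinning, 7.69% of pilot eGFP++ cells held Celf5, against 12.8% and 12.5% on the pilot Day 6 plates. Celf2 was at 6.31 and 0.305 CPM, the pilot value being 5 reads, which is 3.20-fold and 80.7-fold below Day 6. The share of thinned cells with Celf2 was 1.77% (0.760 to 4.08%) in main eGFP++ and 7.91% (5.53 to 11.2%) in main Day 6 cells.

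None of these differences passed edgeR's quasi-likelihood test: 0 of 10 members were called, where 0.0311% of 16080 genes were, all lower. Without adjustment 1011 genes had p below 0.05, and DESeq2 called 3.32% of genes and no member. The fitted values were 2.83 ± 1.77 for Elavl4, 1.91 ± 0.66 for Elavl2, 1.92 ± 1.52 for Celf3, 2.60 ± 1.501 for Celf4 and −2.88 ± 1.21 for Celf2, with adjusted p-values from 0.683 to 0.743. The median over the members was 1.14, beside −0.52 over all genes. Fitted without the pilot eGFP++ sum, Elavl4 was at −0.28, Celf3 at −0.27 and Elavl2 at 1.19, although the main sums by themselves were higher in eGFP++ for all 3. The cause was not tested. Without the main eGFP++ sum 761 genes were called, and Celf2 among them (−6.29, adjusted p = 0.0174). Like Celf2, the summed CPM of 5 neural progenitor markers (Sox1, Pax6, Olig2, Nkx6-1 and Hes5) was lower in eGFP++ cells. It went from 638 to 99.6 in the main sums and from 532.5 to 175.8 in the pilot sums. Yet 2 of these 5 markers had a positive fitted change and none passed. Their median was −0.64, close to the −0.52 over all genes. Neuron markers were higher, as were Elavl4, Elavl2 and Celf3, and went from 1894 to 4591 and from 1824 to 4278 summed CPM. The part of either set of markers in the members' values was not tested. Elavl1 and Celf1 had no common direction, at 0.922 and 1.66 times Day 6 for Elavl1 and 0.825 and 1.30 times for Celf1.

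The single eGFP+ plate did not lie between Day 6 and eGFP++ for most members. It gave 28.4 CPM of Elavl2, 57.2 of Elavl3, 56.7 of Celf3 and 34.1 of Celf1, each below the main Day 6 sum of 195.7, 150.9, 104.2 and 83.2. Elavl4 (333.7 CPM), Celf4 (114.6 CPM) and Elavl1 (197.3 CPM) were above it. Relative to eGFP+, eGFP++ cells held 14.4-fold more Elavl2, 5.81-fold more Celf3, 3.09-fold more Elavl3 and 1.94-fold more Elavl4. With 83 cells of 1 plate there is no replicate and no test, and the 16.7 CPM of Celf6 there came from 1 cell.

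Within a day, the neuronal members were found in the cells that also held neuron markers, whereas Elavl1 and Celf1 showed no such order in the main experiment. Thinned cells were sorted into ranges by how many of the 6 neuron markers had a read, which is a range and not a cell type. On main Day 5 Elavl4 was found in 12.9% of cells with no marker, 36% of cells with 1 or 2, 91.5% of the 47 cells with 3 or 4, and 93.8% of the 16 cells with 5 or 6. On main Day 6 the same shares were 14.5%, 39.8%, 72% and 80.7%, and on pilot Day 6 they were 17.6%, 40%, 71.4% and 100%, the last being 8 cells. Celf3 went over the same ranges from 3.68% to 12%, 46.8% and 87.5% on main Day 5 and from 4.03% to 52.6% on main Day 6. So cells with many markers almost always held Elavl4 on Day 5 and mostly held Celf3. Elavl2 went from 11.7% to 75% on main Day 5 and from 8.87% to 63.2% on main Day 6. Elavl3 went from 11% to 66% in the range of 3 or 4 markers and stood at 62.5% in the last range on main Day 5. Elavl1 was at 62%, 64%, 53.2% and 62.5% over the 4 ranges of main Day 5, and Celf1 at 42.3%, 45%, 48.9% and 37.5%. In the pilot experiment, Spearman's rho with the summed reads of the neuron markers was −0.25 for Elavl1 and 0.07 for Celf1 on Day 6 (71 cells). For Day 5 it was −0.004 and −0.19 (75 cells). Celf2 was at 12.3% to 18.8% on Day 5 and at 10.5%, 9.18%, 4% and 5.26% on Day 6, with overlapping intervals. These shares describe cells of 1 culture and are not replicates of one another.

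**Figure D4:**
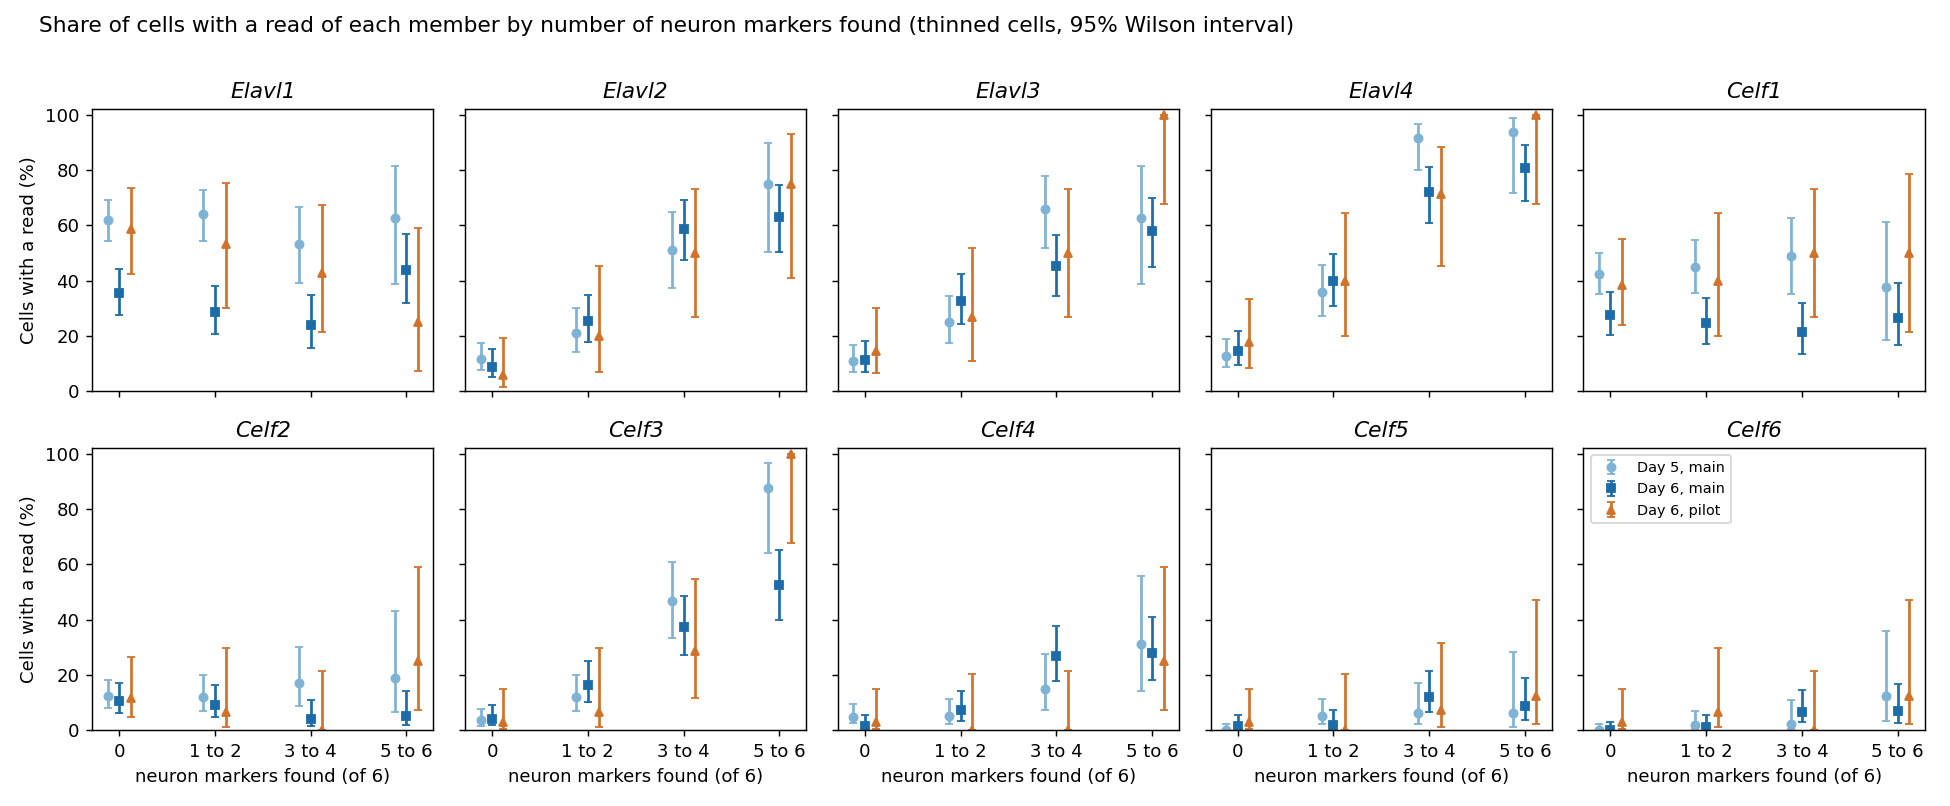
Share of thinned cells with a read of each member (y axis, percent, 95% Wilson interval) against the number of the 6 neuron markers found in the same cell (x axis), for main Day 5, main Day 6 and pilot Day 6. Elavl2, Elavl3, Elavl4 and Celf3 climb from left to right in all 3 sets except Elavl3 in the last step of main Day 5, while Elavl1 and Celf1 do not in the main experiment.

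The neuronal Elavl genes overlapped in part within single cells. Of the 84 main Day 5 cells with Elavl3, 55 (65.5%) also held Elavl4, and of the 76 cells with Elavl2, 48 (63.2%) did. Elavl4 itself was in 35.3% of the thinned cells of that day. Of the 54 cells with Celf3, 42 (77.8%) held Elavl4, whereas 36.5% of the Elavl4 cells held Celf3. Spearman's rho over these cells, which share culture and day but not plate, was 0.38 for Elavl2 with Elavl4, 0.43 for Elavl3 with Elavl4, 0.22 for Elavl2 with Elavl3 and 0.45 for Elavl4 with Celf3. With the summed reads of the neuron markers rho was 0.62 for Elavl4, 0.51 for Celf3, 0.43 for Elavl3, 0.38 for Elavl2 and −0.06 for Elavl1. In main eGFP++ cells the same values were 0.01, 0.01, −0.02, 0.17 and −0.21, and only 2.48% of those cells held no marker.

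Counting the neuronal Elavl genes per cell gives the same order of groups. In the main experiment 89.4% of Day 4 cells, 49.1% of Day 5 cells, 37.3% of Day 6 cells and 10.3% of eGFP++ cells held none of Elavl2, Elavl3 and Elavl4. All 3 were found together in 0%, 8.28%, 10.2% and 29.4%. In the pilot plates none of the 3 was found in 100%, 73.3%, 42.3% and 5.13% of cells, and all 3 in 0%, 2.67%, 11.3% and 15.4%. The eGFP+ plate had 50.6% of cells with none and 1.2% with all 3. On main Day 2, 84.2% held none, a lower share than the 93.4% of Day 3. On that day 52.7% of cells held 1 or 2 of the 6 neuron markers, against 14.9% on pilot Day 2.

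The genes whose pattern was nearest to each member were sought among 7322 genes over the 7 main and 6 pilot groups, by the lower of the 2 Pearson's r on log2(CPM + 1). The groups share libraries and the r values are descriptions. For Celf3 these were Nefm, a neurofilament gene (0.991), Brsk2, a kinase of neuronal polarity (0.984), and Stk32a (0.984). Nefm stood at 3.49, 6.73, 8.47, 216.8 and 1049 CPM on main Days 2 to 6. For Elavl4 they were Lhx3, a motor neuron transcription factor (0.982), 2610100L16Rik (0.981) and Nhlh1, a neuronal basic helix-loop-helix gene (0.979). Between members, Celf3 and Elavl4 were the nearest pair, at 0.9497 in the main groups and 0.991 in the pilot groups. Elavl2 was nearest to Pcnx (0.966), Oxct1 (0.964) and Ap1s1 (0.963), and Elavl3 to Mcts2 (0.953), Gap43, a growth cone gene (0.938), and Sbk1 (0.938). Elavl1 was nearest to Nampt, an enzyme of NAD synthesis (0.960), Ahctf1 (0.922) and Spata5 (0.906). Celf2 was nearest to Haus4, a subunit of the augmin complex of the mitotic spindle (0.975), B2m (0.928) and 2700094K13Rik (0.923). Celf1 was nearest to Osgin2 (0.922), Ogfrl1 (0.899) and Prkd3 (0.888). Celf4 was nearest to Runx1t1 (0.896), Frat2 (0.881) and Rabgap1 (0.875), and Celf6 to Pbx3 (0.911), Eno2 (0.899) and Basp1 (0.892). Celf5 did not reach 10 CPM in a group of both experiments and was left out of this search. Which genes are nearest depends on the measure. By the lower of the 2 Spearman's rho, no gene named for Elavl3, Elavl4, Celf3, Celf4 or Celf6 was among the first 3. Of the others, Nampt and Ahctf1 (Elavl1), Oxct1 (Elavl2), Prkd3 (Celf1) and Haus4 (Celf2) were.

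Among other RNA regulators that act with or against these families, 1 gene was called for the slope in each of 3 lists, where 4.18% of all genes tested were called. Of 10 AU-rich element binding proteins that promote decay or compete with ELAVL proteins, 1 rose with the day, none fell and 9 did not pass, with a median slope of −0.13. Zfp36l1, which brings deadenylases to AU-rich messages, rose by 0.77 ± 0.18 per day (adjusted p = 0.0372), from 46.9 to 161.1 CPM in the main sums and from 10.1 to 361.2 CPM in the pilot sums. In eGFP++ cells it stood at 21 and 7.45 CPM, a difference of −4.46 ± 0.79 from Day 6 (adjusted p = 0.118). Hnrnpd (AUF1) had a slope of −0.35 ± 0.09 (adjusted p = 0.0519). Of 14 genes of deadenylation and the poly(A) tail, 1 rose, Btg1 (0.63 ± 0.11, adjusted p = 0.0102), none fell, and the median was −0.07. Among 18 splicing partners 1 rose, Rbfox1, a neuronal splicing factor (2.94 ± 0.67, adjusted p = 0.0322), none fell, and the median was 0.22. Ptbp1, the repressor of neuronal exons, was at 255.8 and 365.9 CPM on Day 2 and at 111.5 and 102.4 CPM on Day 6, with a slope of −0.33 ± 0.09 that missed the threshold (adjusted p = 0.0593).

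Among 17 messages known to be bound by ELAVL proteins, 1 fell, Ccnb1, a mitotic cyclin (−0.36 ± 0.08, adjusted p = 0.0260), none rose and 16 did not pass, with a median slope of 0.33. Ccnb1 went from 554.6 to 191.8 CPM in the main sums and from 852 to 310.8 CPM in the pilot sums, and stood at 64.3 and 16.7 CPM in eGFP++ cells. Vegfa, an angiogenic growth factor, had a slope of 0.53 ± 0.15 (adjusted p = 0.0758). Gap43, a classical HuD target, was at 34.4, 29.6, 2.58, 468.8 and 1800.3 CPM on main Days 2 to 6 and at 69.4, 39.9, 0.0664, 119.6 and 1131 CPM on the pilot days. Its difference between Day 6 and Day 2 was 4.52 ± 1.14 (adjusted p = 0.118). In the other 3 comparisons none of the 4 lists held a called gene. Their medians were −0.55, −0.30, 0.76 and 1.01 for Day 6 against Day 2, in the order of the lists above.

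Markers of cell types were read beside the members, and no order among them was tested. The summed neuron markers did not rise steadily: they went from 184.3 CPM on Day 2 to 58.2 on Day 4 in the main sums, and from 86.8 to 16.5 in the pilot sums, before they rose. Of the pluripotency markers (Pou5f1, Nanog, Zfp42, Dppa5a and Tdgf1) 4 of 5 fell with the day, and their summed level was 4325 and 2921 CPM on Day 2 and 11.9 and 28.7 CPM on Day 6. Of the neuron markers 3 of 6 rose (Dcx, Stmn3 and Tubb3), of the motor neuron markers 3 of 5 (Slc18a3, Lhx3 and Chat) and of the neural progenitor markers 1 of 5 (Hes5). None of the tested markers of extraembryonic endoderm (6), mesoderm (2), spinal interneurons (4) or glia (3) passed, and no blood marker had enough reads to be tested. Not passing is not absence. All 4 spinal interneuron slopes were positive, with a median of 1.86, beside 1.22 for the neuron markers. Spinal interneuron markers summed to 0.888 CPM on main Day 2 and 66.7 CPM on main Day 6, and to 0 and 5.73 CPM on these pilot days.

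The count of a member can take in reads of another gene where genes overlap or share sequence, and the labels do not say whether counting used strand. In GENCODE M21 Elavl4, Celf1 and Celf6 overlapped no other gene. Overlapping genes with an entry of their own in the tables were Ccl25 for Elavl1, Mir6402 for Elavl2 and Riiad1 for Celf3, and none covered the 3′ end of the member. In the last 1000 bases of the longest coding transcript, 8 members shared no run of 50 bases with another gene. Celf5 shared 0.849% and Celf6 0.961% of such runs with other genes.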

How the data were processed

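Single cells were sorted into plates and sequenced by a modified CEL-seq protocol, per the labels' protocols. The authors deposited 1 table of read counts per plate, whole numbers per gene and cell, not normalized. The submitters' processing notes name TopHat2 2.1.1, HTSeq 0.6.1 and mm10; their roles and the use of strand are not given in the sources used here. Reads carry no molecular identifiers, so intervals and floors cover counting error only. The tables have no header, so each column was given its plate's day and experiment, and not a single cell's label. Lines that name no gene took 34.9% of reads and 92 spike-in sequences 6.16%, and both stayed out of library sizes. The 27 names not alike in every table were left out, and 40 columns of 1 table that matched no sample were not used. Counts differed between all kept cells.

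Kept cells (at least 500 detected genes) were summed per group and experiment. The 10 sums of Days 2 to 6 (slope, 7 residual degrees of freedom) and 12 sums of 6 groups (5 residual degrees of freedom) were fitted with glmQLFTest of edgeR 4.0.16 (R 4.3.3) after TMM and filterByExpr, with the experiment as a term and a prior count of 0.125. Tests were two-sided, and p-values of all genes tested were adjusted together (Benjamini-Hochberg, threshold 0.05). The test returns no standard error, so each SE given was worked back as the absolute log2 change divided by the square root of the test's F. The comparisons share sums: Day 6 enters 3 of them and Days 4 and 5 enter 2. Replicates are experiments, as the labels name them, and p-values measure the spread between these sums only. Differences of main and pilot sums correlated between groups at 0.0326 to 0.143 (median 0.103, 15 pairs of groups). The eGFP+ plate stayed outside the fits. For shares, 2433 kept cells (99.4%) were thinned to 10000 reads. The steps were tested on simulated data. Doublets were not called, since each well received 1 sorted cell. Sums, shares and plots were made with scipy 1.17.1, matplotlib 3.10.9, pandas 2.3.3 and numpy 2.4.6 under Python 3.11.15, and coordinates came from GENCODE M21. DESeq2 1.42.0 was an alternative, as were other scalings, filters, thinned cells, cells with a read, plates, sums left out and a fit with no experiment term. An alternative without the Day 3 plate of few genes was chosen after seeing the data.

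The members, lists, markers and tests were chosen with earlier results of these data known. All 10 members are named. Of each list, up to 2 genes that passed with the smallest adjusted p are named, or else the 2 with the smallest adjusted p, and other genes named beside them were chosen after their values were seen. For a member that reached 10 CPM in a group of both experiments, the 3 genes of most similar pattern are named, among genes that reached 20 CPM.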

Additional observations from a re-analysis of the deposited data

Results flagged for a closer look

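Plates of 1 day and experiment were compared for each member where there were at least 4 plates and the highest reached 10 CPM. The wider of the gaps at the high and the low end was set against the whole range. In 5 of 29 such groups of plates it was wider than Dixon's test allows at the 95% level, each time at the high end. Chance alone sets that rate at about 1 in 20 for independent, normally spread values, which was not checked for CPM. Plates are parts of an experiment and not replicates.

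The main Day 3 plate with a median of 1220 detected genes per cell gave 3 of them. Elavl2 was at 143.4 CPM there and at 3.70 to 10.97 CPM on the other 4 plates, Celf1 at 366.01 against 71.2 to 117.8 CPM, and Celf2 at 111.9 against 20.7 to 27.1 CPM. On main Day 5, Elavl3 was at 69.6 CPM on 1 plate and at 37.2 to 39.6 CPM on the others. On main Day 6, Celf2 was at 31.9 CPM on 1 plate and at 16.2 to 16.7 CPM on the others. Without the Day 3 plate 2 members kept a called slope, Elavl4 and Celf3, and 602 genes were called in place of 667.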

How the results depend on the processing

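Each group has 2 sums, and the share of genes called moved with most choices. The slope called 4.18% of genes as reported, 16.3% with DESeq2, 30.2% with spike-in scaling, 9.96% with thinned cells and 26.5% when cells with a read were counted. Day 6 against Day 2 called 0.833%, and 12.7%, 13.3%, 6.31% and 30.8% under the same settings, with 0.506% without the 2 Day 4 plates that lost over 35% of wells. Day 5 against Day 4 called 0%, and 1.14% with DESeq2, 0.172% with thinned cells and 2.45% with cells counted. The eGFP++ comparison called 0.0311%, and 3.32% with DESeq2, 0% with spike-in scaling, 0.0157% without the gene filter, 0.0187% with at least 1000 genes per cell, 0.19% with thinned cells, 1.31% with cells counted and 0.0125% without those plates. Spike-in scaling moved the share of lower genes among those called from 52.9% to 95.6% for the slope and from 29.9% to 96.1% for Day 6 against Day 2. It moved the median of all genes by −0.51 per day and −2.02.

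Leaving out 1 sum at a time gave 0.783% to 5.58% of genes for the slope, 0.046% to 0.914% for Day 6 against Day 2, 0% to 0.0871% for Day 5 against Day 4 and 0% to 4.39% for eGFP++. The slope lost over 1.5 times of its calls without either Day 2, Day 5 or Day 6 sum or without the main sums of Day 3 or 4 (0.783% to 2.64%). In the fit with no replicate block, that is without the experiment term that pairs the sums, the slope called 3.07% of genes, Day 6 against Day 2 called 0.665%, Day 5 against Day 4 called 0% and eGFP++ called 0.0187%. There Elavl4's slope (1.86) had an adjusted p of 0.0502 and Celf3's Day 6 against Day 2 difference one of 0.0501, and no other member's call changed.

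Among members, Elavl4's slope also missed without the 2 Day 4 plates (1.89, adjusted p = 0.0513), as did Celf3 for Day 6 against Day 2 (0.0605). Calls were gained for Elavl1 (slope with DESeq2, 0.0185), for Elavl1 and Celf1 with spike-in scaling (slope 0.00196 and 0.00837, Day 6 against Day 2 0.0139 and 0.0292), for Elavl2 and Elavl4 between Day 2 and Day 6 with DESeq2 (0.0161 and 0.0028), and with thinned cells for Elavl2, Elavl3 and Elavl4 between Day 2 and Day 6 (0.0127, 0.0259 and 0.000104) and for Celf3 between Day 4 and Day 5 (0.0134). When cells with a read were counted, a measure open to depth, Elavl2 and Elavl3 were called in the slope, Elavl2, Elavl3 and Elavl4 between Day 2 and Day 6, these 3 and Celf3 between Day 4 and Day 5, and Elavl2 in eGFP++ (adjusted p up to 0.0429). Directions reversed as follows. Spike-in scaling gave slopes of −0.41 for Celf2, −0.33 for Celf4 and −0.0511 for Celf5, Day 6 against Day 2 values of −1.09, −1.35 and −0.39, and 0.0159 for Celf5 in eGFP++. Thinned cells gave 0.28 for Celf1 on Day 5 against Day 4, and −0.20 for Elavl1, −0.41 for Celf1 and 0.27 for Celf5 in eGFP++. Counting cells gave 0.00377 for Celf1 and 0.64 for Celf4 on Day 5 against Day 4 and 0.52 for Celf5 in eGFP++, and leaving out the 2 Day 4 plates gave 0.0381 and 2.06 for Celf1 and Celf4 on Day 5 against Day 4. With 1 sum left out, ranges that crossed 0 were −0.10 to 0.00557 for Celf1 and −0.0494 to 0.29 for Celf2 (slope), −0.83 to 0.18 for Elavl1, −1.17 to 0.26 for Celf2 and −2.41 to 0.14 for Celf4 (Day 5 against Day 4), and −0.14 to 0.75 for Elavl1, −0.28 to 4.13 for Elavl4, −0.40 to 0.49 for Celf1 and −0.27 to 4.00 for Celf3 (eGFP++). The causes were not tested.

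Of 260 alternative shares of cells, 84 fell outside the interval of the reported share. Several sums of Elavl2, Elavl3, Elavl4, Celf4, Celf5 and Celf6 drew most of their reads from 1 cell, which limits what those levels show. A lone sum left in a group was assumed to vary like the other groups.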
